A study of Mus musculus with 9 samples.

Results

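The 38 genes described here encode the enzymes through which heart mitochondria feed carbon into the citric acid (TCA) cycle and turn it. They were chosen by name and found in the deposited tables through their Entrez gene identifiers, and all 38 were present among the 16873 identifiers listed. They fell into 5 genes of pyruvate entry, 18 of the TCA cycle itself, 12 of branched-chain amino acid oxidation and 3 of ketone body oxidation. RNA was sequenced from mouse heart in 9 libraries, 3 in each of 3 groups. The groups were wild-type (WT) hearts after saline, WT hearts after doxorubicin (DOX), and Sting-/- hearts after doxorubicin. Doxorubicin is an anthracycline chemotherapy drug with known cardiotoxicity, and the study gave it at a low dose to model chronic injury. STING is the adaptor that signals when cGAS detects DNA in the cytosol, and the design text lists the Sting-/- mice apart from a conditional line that lacks the gene in endothelial cells. Without saline-treated Sting-/- hearts, which were not analysed here, what the missing gene did on its own and what it did under the drug cannot be told apart. Strain, age, dose and treatment length are not given in the sources used here, and the labels do not tie a library to an animal. The p-values below therefore measure only the spread between these libraries, which may be technical.

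Pyruvate from glycolysis and lactate, acetyl-CoA from fatty acids and ketone bodies, and the carbon skeletons of leucine, isoleucine and valine all converge on the TCA cycle, whose dehydrogenases supply the respiratory chain with electrons. The heart takes up ketone bodies and branched-chain amino acids from blood and oxidises them, and cardiomyocytes, packed with mitochondria, hold most of this capacity in cardiac tissue. Many of the enzymes are multi-subunit complexes, and pyruvate dehydrogenase and the branched-chain ketoacid dehydrogenase are each switched off by a dedicated kinase and on again by a phosphatase.

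The values are FPKM, fragment counts scaled to transcript length and library depth, so levels can be set beside each other between genes. The spacing of the lowest values put the depth at roughly 11000000 to 11900000 fragments after saline, 12900000 to 14000000 after doxorubicin in WT hearts, and 8000000 to 8200000 in Sting-/- hearts. At those depths 1 fragment of a 2 kb transcript is worth at most 0.0621 FPKM, far below any member's level. Sting1 itself was at 5.1, 5.43 and 5.93 FPKM after saline, 17.5, 18 and 17.8 FPKM in WT hearts after doxorubicin and 0.06, 0 and 0 FPKM in the Sting-/- libraries, which matches the genotype labels. All 16 cardiomyocyte markers were detected in every group. Their summed level was 87696.9 to 88865.9 FPKM after saline, 58113.7 to 61990.4 FPKM in WT doxorubicin hearts and 12405.2 to 12959.0 FPKM in Sting-/- hearts. Markers of several other cell types were highest in the Sting-/- libraries. The 10 fibroblast markers summed to 623.9 to 634.7, 1243.8 to 1286.3 and 7895.5 to 8374.1 FPKM in the same order of groups. Col1a1, Col1a2, Col3a1 and Postn made up most of the last sum, at means of 1988.0, 1463.0, 1751.6 and 1424.4 FPKM. By the test described below, 7 of the 10 were higher, 1 lower (Fbln1) and 2 not called in WT doxorubicin against saline hearts. In Sting-/- against WT doxorubicin hearts 9 were higher, beside 54.1% of all genes, and Pdgfra was not called (-0.08). The 10 endothelial markers summed to 2051.3 to 2158.6, 1651.1 to 1799.9 and 6366.6 to 6806.6 FPKM. Fabp4 and Cd36 made up most of each sum, at means of 1110.0 and 691.8, 962.4 and 486.3, and 4824.8 and 545.2 FPKM. In WT doxorubicin against saline hearts, 5 of the 10 were lower, 1 higher and 4 not called. Of all genes tested, 21.5% were lower and 45.3% higher. In Sting-/- against WT doxorubicin hearts all 10 were higher, beside 54.1% of all genes. Markers of blood and tissue edge were also high in Sting-/- hearts: the erythroid markers reached 8480.3 to 9700.1 FPKM against 1498.2 to 1637.9 FPKM in WT doxorubicin hearts, the mesothelial markers 81.5 to 84.7 against 5.2 to 7.11 FPKM, and the cartilage and valve markers 187.6 to 195.2 against 2.19 to 2.57 FPKM. Leukocyte and atrial markers moved with doxorubicin in WT hearts. All 10 macrophage and monocyte markers were higher there, as were 45.3% of all genes tested below. Their sums were 423.4 to 478.8 FPKM after saline, 1318.5 to 1487.5 FPKM after doxorubicin and 2598.8 to 2703.6 FPKM in Sting-/- hearts. Lyz2, C1qa and C1qb made up most of the last sum, at means of 1201.6, 574.9 and 617.0 FPKM. Marker by marker the list split between Sting-/- and WT doxorubicin hearts. By the test described below 6 were higher, 3 lower (Ccr2, Fcgr1 and Mrc1) and 1 neither, beside 54.1% and 29.7% of all genes called higher and lower. The 5 neutrophil markers were also all higher with doxorubicin in WT hearts. They summed to 6.31 to 7.02, 209.1 to 276.2 and 82.2 to 97.5 FPKM and so were highest in WT doxorubicin hearts. The 4 atrial cardiomyocyte markers listed, also all higher with doxorubicin in WT hearts, summed to 183.9 to 217.3, 2660.2 to 2997.3 and 3704.7 to 3829.4 FPKM. Nppa alone made up nearly all of these sums, at means of 202.9, 2797.8 and 3674.4 FPKM. Myl4, Myl7 and Sln averaged 19.7, 13.9 and 8.45 FPKM in WT doxorubicin hearts and 28.9, 32.9 and 11.1 FPKM in Sting-/- hearts. Of the 4, 3 were called higher in Sting-/- than in WT doxorubicin hearts, and Sln was not. These shifts accompany every result below, and their part in those results was not tested. In whole heart, fewer cells of a type and less RNA per cell cannot be told apart.

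**Figure D1:**
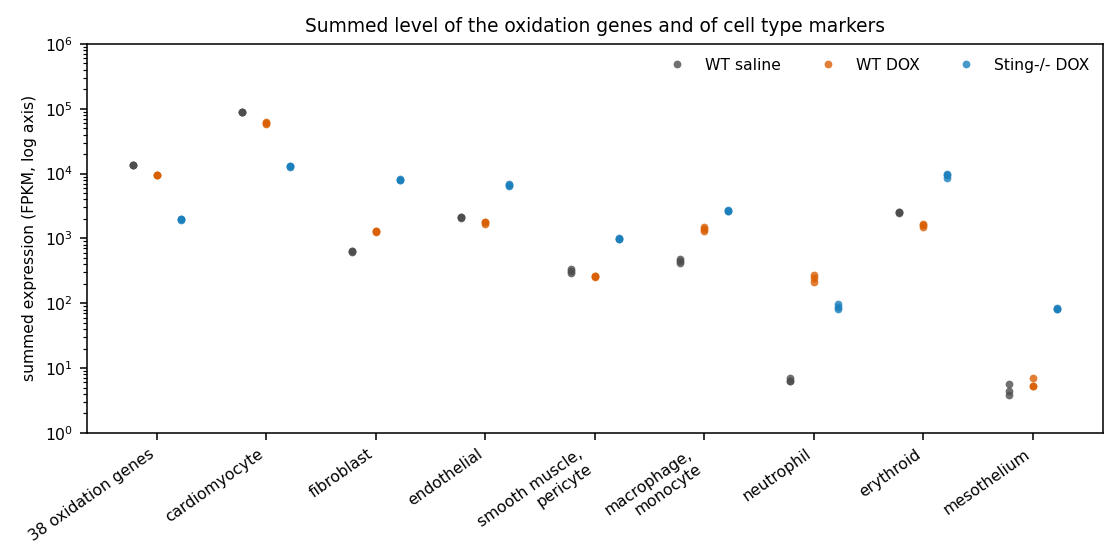
Summed expression (FPKM, log axis) of the 38 oxidation genes and of 8 lists of cell type markers, with 1 point for each of the 9 libraries, coloured by group. The oxidation genes and the cardiomyocyte markers step down from saline to WT DOX to Sting-/- DOX, while the fibroblast, endothelial, erythroid and mesothelial markers are highest in Sting-/- DOX.

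The oxidation genes were lower after doxorubicin, and far lower again in Sting-/- hearts. Together they summed to 13484.9 ± 175.1 FPKM after saline, 9556.6 ± 47.3 FPKM in WT hearts after doxorubicin and 1975.1 ± 27.9 FPKM in Sting-/- hearts (mean ± SD, n = 3 each). As a share of each library's summed FPKM this was 2.43%, 1.69% and 0.365%. Differences were tested with limma on log2(FPKM + 1) over 12485 genes whose average level reached 1 FPKM, a filter every member passed, and called at a Benjamini-Hochberg adjusted p under 0.05. All log2 fold changes below are on this scale, which slightly understates the change of the members with the lowest levels.

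In WT hearts 37 of the 38 members were lower after doxorubicin, against 21.5% of all genes tested that were called lower and 45.3% called higher. The median log2 fold change of the members was -0.50, with a range from -0.81 for Ivd to -0.10 for Bcat2, beside a median of 0.13 over all genes tested. In Sting-/- hearts all 38 were lower than in WT hearts given the same drug, where 29.7% of all genes were called lower and 54.1% higher. Here the members' median was -2.18, from -3.03 for Mdh1 to -0.59 for Bckdhb, beside 0.25 for all genes. Against saline, the Sting-/- hearts were lower for 38 of 38, with a median of -2.65 beside 0.49 for all genes, of which 25.9% were called lower and 63.0% higher. The comparisons share libraries: WT doxorubicin is the treated group in the first and the reference in the second. Every member ordered the groups in the same way without overlap, from the saline libraries at the top to the Sting-/- libraries at the bottom. Lower values without overlap were found for 23.8% of all genes in WT doxorubicin against saline, 30.1% in Sting-/- against WT doxorubicin, and 26.0% in Sting-/- doxorubicin against saline. Higher values without overlap were found for 47.8%, 54.7% and 63.2% of all genes in the same comparisons and for none of the members.

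Scaling moves these background shares. Under the deposited FPKM scale 32.2% of all calls between doxorubicin and saline in WT hearts were lower, but 58.8% were after median-ratio scaling and 60.8% after quantile normalization. Between Sting-/- and WT hearts the same share was 35.4%, 53.3% and 48.6%, and between Sting-/- hearts and saline 29.1%, 51.0% and 48.7%. With median-ratio scaling the median of all genes moved to -0.085, -0.049 and -0.016 in the 3 comparisons. After quantile normalization it was -0.104, 0.019 and 0.029. The members' medians became -0.75, -2.52 and -3.24 under the first scaling and -0.67, -2.18 and -2.90 under the second. All 38 were called lower in each comparison under both.

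**Figure D2:**
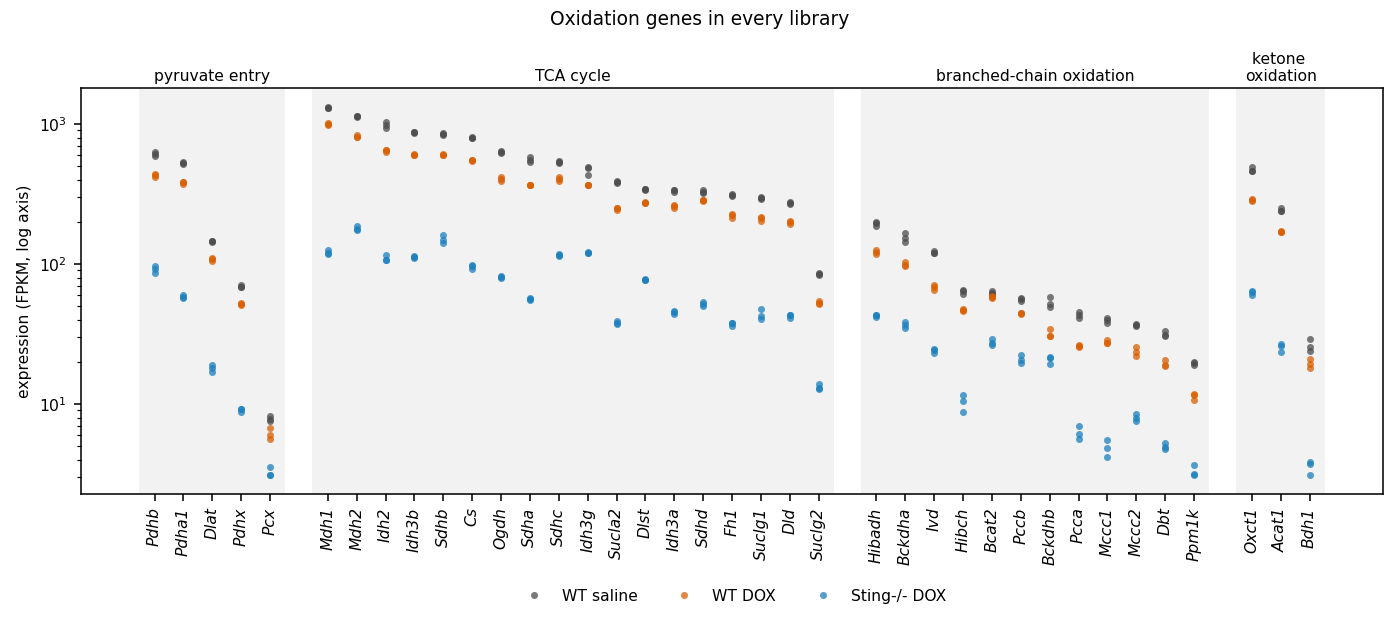
Expression (FPKM, log axis) of each of the 38 oxidation genes in every library, grouped by pathway and ordered by saline level, with 1 point per library. In each gene the 3 saline points lie above the 3 WT DOX points, and these lie above the 3 Sting-/- DOX points.

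All 5 genes of pyruvate entry were lower in each comparison, and the dehydrogenase subunits fell much further in Sting-/- hearts than the carboxylase. WT doxorubicin hearts kept a median of 74.5% of the saline level over the 5 genes, and Sting-/- hearts a median of 17.4% of the WT doxorubicin level. Pdha1 (Entrez 18597), the catalytic alpha subunit of pyruvate dehydrogenase and the site of its regulatory phosphorylation, was at 536, 522 and 524 FPKM after saline, 374, 387 and 385 FPKM after doxorubicin and 58, 57.1 and 60.2 FPKM in Sting-/- hearts. Replicates lay close together, and each group stood apart from the others. Its log2 fold change was -0.47 (SE 0.033, limma adjusted p = 1.47e-07) for doxorubicin in WT hearts. Between Sting-/- and WT hearts it was -2.69 (SE 0.033, limma adjusted p = 3.17e-14), the largest drop of the 5. Pdhb (68263), the beta subunit of the same E1 enzyme, went from 615, 627 and 588 FPKM to 418, 438 and 431 FPKM and then to 86, 92 and 97 FPKM. Its groups were separate too, with the Sting-/- libraries spread a little more than the others relative to their level. The doxorubicin difference was -0.50 (SE 0.045, limma adjusted p = 1.11e-06), and the genotype difference -2.22 (SE 0.045, limma adjusted p = 6.83e-13). Dlat, the E2 acetyltransferase core, and Pdhx, the protein that anchors E3 to that core, fell by 0.42 and 0.41 on the log2 scale with doxorubicin and by 2.52 and 2.40 in Sting-/- against WT hearts.

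Pcx (18563), pyruvate carboxylase, makes oxaloacetate to refill the cycle rather than acetyl-CoA to burn in it. It was the lowest of the 5 in saline hearts, at 8.21, 7.57 and 7.86 FPKM, against 6.03, 6.73 and 5.65 FPKM after doxorubicin and 3.11, 3.54 and 3.13 FPKM in Sting-/- hearts. The groups did not overlap, although the gaps were small beside those of the dehydrogenase subunits. Its doxorubicin difference was -0.32 (SE 0.073, limma adjusted p = 0.00218). Its genotype difference was -0.74 (SE 0.073, limma adjusted p = 1.11e-06), which left 53.1% of the WT doxorubicin level where Pdha1 kept 15.3%.

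In the TCA cycle all 18 genes were lower in each comparison, with median log2 fold changes of -0.48 for doxorubicin in WT hearts, -2.37 for Sting-/- against WT hearts and -2.79 for Sting-/- hearts against saline. A median of 71.5% of the saline level remained in WT hearts after doxorubicin, and 14.2% in Sting-/- hearts. Cs (12974), citrate synthase, joins acetyl-CoA to oxaloacetate and is widely used as a measure of mitochondrial content. It stood at 805, 793 and 790.5 FPKM after saline, 555, 556 and 547 FPKM after doxorubicin and 98.6, 92.6 and 96.7 FPKM in Sting-/- hearts. Within each group the 3 libraries were nearly level, and the steps between groups were many times wider than the spread inside them. The doxorubicin step was -0.53 (SE 0.032, limma adjusted p = 4.02e-08), and the genotype step -2.51 (SE 0.032, limma adjusted p = 3.41e-14).

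Isocitrate is oxidised either by the NAD-dependent enzyme built from Idh3a, Idh3b and Idh3g or by the NADP-dependent Idh2. Idh3a (67834), the catalytic subunit, was at 336, 326 and 337 FPKM, 263, 258 and 251 FPKM and 45.7, 46.1 and 44 FPKM in saline, WT doxorubicin and Sting-/- hearts. Its log2 fold change was -0.37 (SE 0.035, limma adjusted p = 1.77e-06) with doxorubicin and -2.48 between the genotypes. Idh3g (15929), a regulatory subunit of the same enzyme, read 488, 435 and 489.6 FPKM, then 364, 366 and 364 FPKM and 121, 123 and 119.7 FPKM. Idh3g had the smallest genotype difference of the 18 TCA cycle genes, at -1.58 (SE 0.044, limma adjusted p = 9.5e-12). Its catalytic partner stood at 17.6% of the WT doxorubicin level in Sting-/- hearts and Idh3g at 33.2%. Idh3b, the other regulatory subunit, and Idh2 fell by 2.42 and 2.55 on the log2 scale between the genotypes, and by 0.52 and 0.61 with doxorubicin.

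The next 2 steps make succinate. Ogdh (18293), the E1 subunit of 2-oxoglutarate dehydrogenase and a rate-controlling enzyme of the cycle, was at 645, 626 and 630.4 FPKM after saline, 416, 394 and 407 FPKM after doxorubicin and 81.8, 79.2 and 81 FPKM in Sting-/- hearts. No library came near those of another group. Its doxorubicin difference of -0.64 (SE 0.033, limma adjusted p = 7.25e-09) was among the larger of the TCA cycle, and its genotype difference was -2.32 (SE 0.033, limma adjusted p = 6.01e-14). Dlst, the E2 subunit, and Dld, the E3 subunit shared with the pyruvate and branched-chain complexes, fell less with doxorubicin, at -0.31 and -0.46. Succinyl-CoA ligase pairs the alpha subunit Suclg1 with an ADP-forming beta subunit, Sucla2, or a GDP-forming one, Suclg2. Sucla2 (20916) was at 390.2, 382 and 388 FPKM, 245, 249.7 and 249.9 FPKM and 37.3, 39 and 37.9 FPKM in the 3 groups. Suclg2 (20917), the lowest of the TCA cycle genes in saline hearts, was at 85.9, 84.4 and 84 FPKM, 54.2, 53.1 and 52.2 FPKM and 12.7, 13.9 and 13 FPKM. Both fell alike with doxorubicin, at -0.64 and -0.66. In Sting-/- against WT hearts the ADP-forming subunit dropped further, with a log2 fold change of -2.67 beside -1.93.

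Succinate dehydrogenase is both a TCA cycle enzyme and complex II of the respiratory chain. Sdha (66945), its flavoprotein, was at 577, 537 and 556 FPKM after saline, 368, 369 and 368 FPKM after doxorubicin and 56.3, 55.5 and 57.5 FPKM in Sting-/- hearts. Those libraries were tight within a group and far apart between groups. The log2 fold changes were -0.59 (SE 0.035, limma adjusted p = 2.39e-08) for doxorubicin and -2.68 between genotypes. Sdhd (66925), a membrane anchor that binds ubiquinone, was at 323, 325 and 336 FPKM, 288, 282 and 288 FPKM and 51.4, 53.3 and 50 FPKM. It had the smallest doxorubicin difference of the 18, -0.20 (SE 0.035, limma adjusted p = 0.000338), with the highest WT doxorubicin library still below the lowest saline library. The anchor nonetheless fell in Sting-/- hearts like the rest, at -2.45 (SE 0.035, limma adjusted p = 6.01e-14). Sdhb, the iron-sulfur subunit, and Sdhc, the other anchor, fell by 0.48 and 0.40 with doxorubicin and by 2.01 and 1.80 between genotypes.

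Of the 4 subunits Sdha had the largest doxorubicin difference and Sdhd the smallest. Any link between a promoter match and a fold change was not tested. The promoters of Sdha, Sdhd and Sucla2 are shown because they carry exact matches to the binding motif of NRF1. NRF1 is a nuclear factor known to activate genes of mitochondrial proteins. The 250 bases before each gene's start are given 5′ to 3′ on the gene's strand, from RefSeq on GRCm38.p6, with NRF1 matches in capitals. They lie at chr13:74350241-74350490 (Sdha, minus strand), chr9:50603850-50604099 (Sdhd, minus strand) and chr14:73552536-73552785 (Sucla2, plus strand).
Sdha: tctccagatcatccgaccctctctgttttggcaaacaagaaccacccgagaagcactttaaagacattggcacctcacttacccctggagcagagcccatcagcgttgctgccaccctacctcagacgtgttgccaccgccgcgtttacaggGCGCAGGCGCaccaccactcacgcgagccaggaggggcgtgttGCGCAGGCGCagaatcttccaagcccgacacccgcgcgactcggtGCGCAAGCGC
Sdhd: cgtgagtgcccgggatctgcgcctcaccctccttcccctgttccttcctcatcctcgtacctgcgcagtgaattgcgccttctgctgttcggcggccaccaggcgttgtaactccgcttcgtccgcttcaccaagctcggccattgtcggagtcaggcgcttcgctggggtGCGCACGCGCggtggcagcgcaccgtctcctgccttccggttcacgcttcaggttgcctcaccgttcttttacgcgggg
Sucla2: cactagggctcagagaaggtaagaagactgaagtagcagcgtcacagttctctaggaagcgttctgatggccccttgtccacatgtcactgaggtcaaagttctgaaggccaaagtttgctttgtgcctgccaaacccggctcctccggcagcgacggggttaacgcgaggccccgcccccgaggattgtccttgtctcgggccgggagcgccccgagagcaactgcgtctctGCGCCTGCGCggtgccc
Promoters of 34 of the 38 members were matched by symbol, 44 promoters in all, each covering 250 bases before to 50 after a start. Dbt, Sdhc, Acat1 and Idh3a had no promoter to match and were not searched. The NRF1 motif (GCGCA, any base, then GCGC), searched like the others on both strands, was found in 6 of the 44 (13.6%), against 9.49% of the 12810 promoters of the genes tested and 4.6% of all 32851. Sdha held 3 matches, beginning at -98, -55 and -10 from the start, and Sdhd and Sucla2 held 1 each. Dld, Hibadh and Pccb were the other members with a match. TNAAGGTCA, bound by estrogen-related receptors, was found in 1 member promoter (Sdhd, past the start), or 2.27% against 0.695% of the promoters of genes tested and 1.28% of all promoters. CCGGAAGTG, bound by GABP, was found in 1 (Dlst), or 2.27% against 4.06% and 2.03%. The E-box CACGTG was found in 5 promoters of Mccc2, Ogdh and Pcx, or 11.4% against 9.73% and 7.15%. The repeat bound by PPAR receptors, AGGTCA given again after 1 free base, was in none of the 44, in 0.0312% of the promoters of genes tested and in 0.0396% of all. A match describes letters and not a bound site.

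Fumarate and malate steps close the cycle. Fh1, fumarase, fell by 0.49 with doxorubicin and by 2.53 between genotypes on the log2 scale. Mdh1 (17449), the cytosolic malate dehydrogenase of the malate-aspartate shuttle, was the most abundant of the 38 in saline and WT doxorubicin hearts but not in Sting-/- hearts, at 1328, 1311 and 1294 FPKM after saline, 1002, 983 and 1014 FPKM after doxorubicin and 118, 120.4 and 126 FPKM in Sting-/- hearts. WT doxorubicin hearts kept 76.2% of the saline level, and Sting-/- hearts 12.2% of the WT doxorubicin level. The doxorubicin difference was -0.39 (SE 0.033, limma adjusted p = 6.58e-07). The genotype difference of -3.03 (SE 0.033, limma adjusted p = 1.76e-14) was the deepest of all 38. Mdh2 (17448), the mitochondrial enzyme, was second in saline hearts at 1145, 1124 and 1136 FPKM, and lay at 807, 805 and 839 FPKM and 177, 186 and 174 FPKM in the other groups. It fell further than Mdh1 with doxorubicin, at -0.47, but less between genotypes, at -2.19.

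Branched-chain amino acid oxidation had the deepest median of the 4 pathways with doxorubicin and the shallowest in Sting-/- against WT hearts. With doxorubicin in WT hearts 11 of its 12 genes were lower, with a median of -0.65. Between genotypes all 12 were lower, with a median of -1.48, so that Sting-/- hearts kept a median of 34.3% of the WT doxorubicin level where the TCA cycle kept 19.2%. No test of the difference between pathways was made, since all 38 genes were measured in the same libraries. Bcat2 (12036), the mitochondrial transaminase that opens the pathway, was at 64.2, 60.6 and 62.4 FPKM after saline, 57.7, 56.9 and 59.5 FPKM after doxorubicin and 26.6, 29.1 and 27.5 FPKM in Sting-/- hearts. The saline and WT doxorubicin libraries were only just separate, and Bcat2 was the 1 member not called with doxorubicin, at -0.10 (SE 0.044, limma adjusted p = 0.0561). It was called lower after median-ratio scaling, at -0.35, and after quantile normalization, at -0.28. In Sting-/- hearts it was lower than in WT hearts, at -1.04 (SE 0.044, limma adjusted p = 3.96e-10).

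The committed step is the branched-chain ketoacid dehydrogenase. Bckdha (12039), its E1 alpha subunit, was at 167, 145 and 152 FPKM, 96.1, 99.1 and 103 FPKM and 34.9, 38.2 and 36.5 FPKM across saline, WT doxorubicin and Sting-/- hearts. Its doxorubicin difference was -0.63 (SE 0.055, limma adjusted p = 9.24e-07), and its genotype difference -1.42 (SE 0.055, limma adjusted p = 1.9e-10). Part of its transcript, 490 bases, is identical to B3gnt8, whose highest level was 12.53 FPKM, so reads from that stretch cannot be assigned to 1 of them with certainty. Bckdhb (12040), the beta subunit, was at 58.2, 49.6 and 52.2 FPKM, 30.8, 30.6 and 34.2 FPKM and 19.4, 21.3 and 21.7 FPKM. Unlike every other member, it lost more with doxorubicin than between genotypes. The doxorubicin difference was -0.72 (SE 0.067, limma adjusted p = 1.52e-06), and the genotype difference -0.59 (SE 0.067, limma adjusted p = 4.27e-06), the smallest of the 38. Dbt, the E2 core, fell by 0.68 and then by 1.78 on the log2 scale.

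Ppm1k (243382), the mitochondrial phosphatase that activates this complex, was at 19.8, 19.1 and 19.6 FPKM after saline, 11.6, 11.8 and 10.7 FPKM after doxorubicin and 3.17, 3.64 and 3.09 FPKM in Sting-/- hearts. The groups were well apart at this low level. Its log2 fold changes were -0.73 (SE 0.062, limma adjusted p = 7.24e-07) with doxorubicin and -1.52 between genotypes. Bckdk, the kinase that inactivates the complex, moved less: 40.5, 40.7 and 42.9 FPKM, then 35.3, 33.5 and 36.7 FPKM and 17.4, 17.2 and 18.4 FPKM, with a doxorubicin difference of -0.23 (SE 0.048, limma adjusted p = 0.00122) and a genotype difference of -0.95. The kinase to phosphatase ratio within a library, on the log2 scale, averaged 1.05 in saline, 1.55 in WT doxorubicin and 2.12 in Sting-/- hearts. Its genotype difference was 0.57, and 0.77 with a pseudocount of 0.1. A stretch of 212 bases of Ppm1k is 95.3% identical to Zmynd8, whose highest level was 29.41 FPKM, so reads there are uncertain.

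Past the dehydrogenase the routes of leucine, isoleucine and valine part. Ivd (56357), the isovaleryl-CoA dehydrogenase of leucine, had the largest doxorubicin difference of the 38. It was at 123, 119 and 120.0 FPKM after saline, 65.5, 68.4 and 70.7 FPKM after doxorubicin and 23.1, 24.4 and 24.6 FPKM in Sting-/- hearts. The libraries within a group hardly differed, and those of different groups lay far apart. The doxorubicin difference was -0.81 (SE 0.042, limma adjusted p = 7.86e-09), and the genotype difference -1.47 (SE 0.042, limma adjusted p = 1.23e-11). Mccc1 (72039), the biotin-carrying subunit of methylcrotonyl-CoA carboxylase, was at 41.4, 39.9 and 38.1 FPKM, 27.3, 27.1 and 28.6 FPKM and 4.21, 5.51 and 4.86 FPKM. It fell furthest of the 12 between genotypes, at -2.30 (SE 0.072, limma adjusted p = 2.79e-11). Its partner Mccc2 fell less, at -1.46, although the carboxylase needs both. The valine enzymes Hibch and Hibadh, a hydrolase and a dehydrogenase, had doxorubicin differences of -0.43 and -0.67 and genotype differences of -2.09 and -1.49. Propionyl-CoA carboxylase, which passes valine and isoleucine carbon on towards succinyl-CoA, differed between its subunits. Pcca had log2 fold changes of -0.71 and -1.90 in the 2 comparisons, and Pccb of -0.32 and -1.05.

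All 3 ketone oxidation genes were lower in both comparisons. Bdh1 (71911), which turns 3-hydroxybutyrate into acetoacetate on the inner membrane, was at 23.8, 29.3 and 25.4 FPKM after saline, 21, 18.2 and 19.2 FPKM after doxorubicin and 3.73, 3.87 and 3.13 FPKM in Sting-/- hearts. Its saline libraries were the most scattered of any member, with a coefficient of variation of 10.8%, yet none overlapped the doxorubicin libraries. The doxorubicin difference was -0.41 (SE 0.086, limma adjusted p = 0.00132), and the genotype difference -2.16 (SE 0.086, limma adjusted p = 2.47e-10). Oxct1 (67041), the transferase that activates acetoacetate and is rate-limiting for ketone use outside the liver, was at 462, 492 and 465 FPKM, 280.0, 289 and 291 FPKM and 63.9, 63.6 and 60.5 FPKM. With doxorubicin it fell further than Bdh1, at -0.72 (SE 0.038, limma adjusted p = 8.92e-09), and between genotypes by a like amount, at -2.18 (SE 0.038, limma adjusted p = 2.1e-13). Acat1 (110446), the thiolase that releases acetyl-CoA and also serves isoleucine breakdown, was at 251, 240.4 and 241 FPKM, 170.4, 169.9 and 171 FPKM and 23.4, 26.1 and 26.8 FPKM. Its genotype difference was the deepest of the 3, -2.70 (SE 0.047, limma adjusted p = 2.1e-13), after a doxorubicin difference of -0.51 (SE 0.047, limma adjusted p = 1.32e-06).

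**Figure D3:**
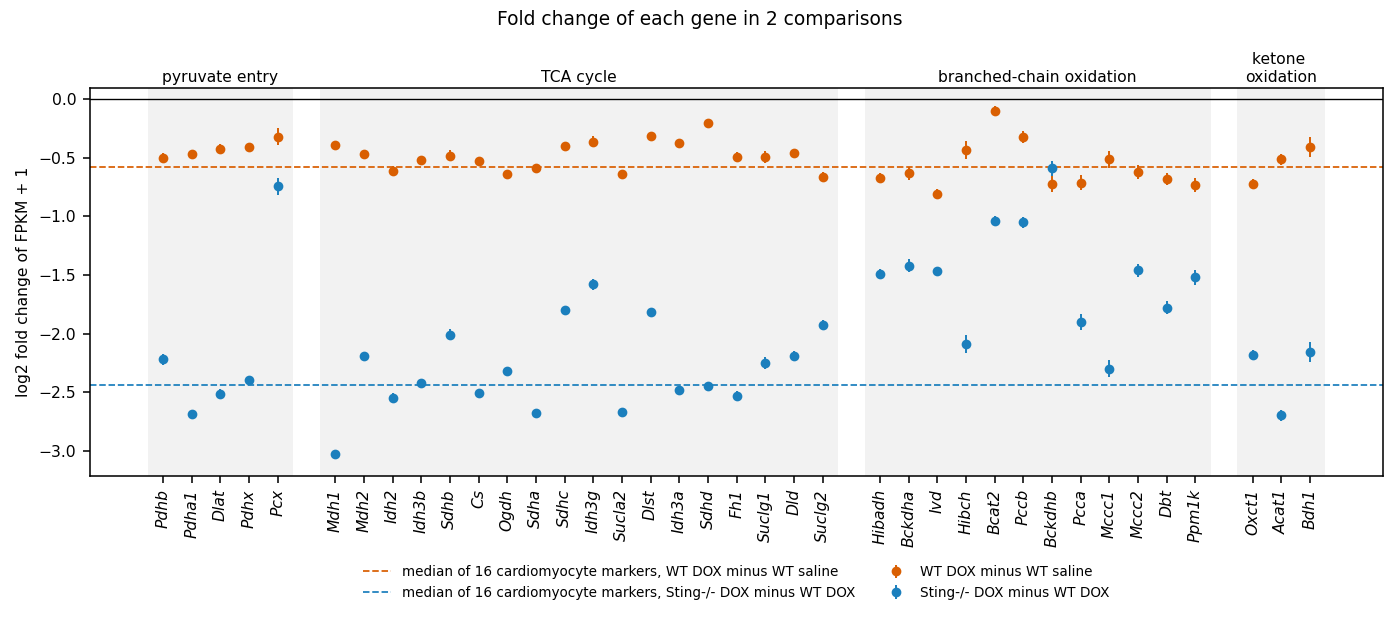
Log2 fold change of FPKM + 1 for each oxidation gene, with bars of 1 standard error from limma, for WT DOX minus WT saline (orange) and Sting-/- DOX minus WT DOX (blue), and dashed lines at the median of the 16 cardiomyocyte markers. Orange points run from -0.81 for Ivd to -0.10 for Bcat2, and blue points from -3.03 for Mdh1 to -0.59 for Bckdhb, with Bckdhb, Pcx, Bcat2 and Pccb nearest 0 among the blue.

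Because cardiomyocyte markers fell alongside, each member was also set beside them within a library, as its log2(FPKM + 1) minus the mean of the 16 markers. This is a description without a test. The markers had 14 of 16 lower with doxorubicin in WT hearts, median -0.58, and 16 of 16 lower between genotypes, median -2.44. Single markers ranged from -1.13 for Ckm to 0.18 for Csrp3 with doxorubicin. Between genotypes they ranged from -3.14 for Myl3 to -1.31 for Mybpc3. Of all genes tested, 21.5% and 29.7% were called lower in these 2 comparisons. Set against the marker mean, the members' median difference was 0.04 with doxorubicin (14 members below 0, 24 above) and 0.16 between genotypes (13 below, 25 above). With the median of the markers in place of their mean it was -0.07 and 0.37, so the first value has no stable sign. TCA cycle genes lay on both sides, with medians of 0.06 and -0.03 and 9 members below and 9 above 0 between genotypes. Beside the marker median theirs were -0.06 and 0.18, with 3 below and 15 above 0 between genotypes, so neither sign held. Mdh1 fell furthest past the markers between genotypes, at -0.69. Between genotypes all 12 branched-chain genes fell less than the marker mean, by a median of 0.86, from 0.04 for Mccc1 to 1.75 for Bckdhb. The smallest of these did not hold, since with a pseudocount of 0.1 Mccc1 lay at -0.14. The pathway's median log2 fold change of -1.48 lay within the range of the single markers. With doxorubicin in WT hearts 8 of the 12 fell more than the markers, with a median of -0.11. Outside that pathway, genes went both ways between genotypes. Pcx, Idh3g, Sdhc and Dlst fell less than the markers by the most, 1.60, 0.75, 0.54 and 0.52. After Mdh1, those that fell further past the markers were led by Acat1, Pdha1, Sdha and Sucla2, at -0.36, -0.35, -0.35 and -0.34.

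**Figure D4:**
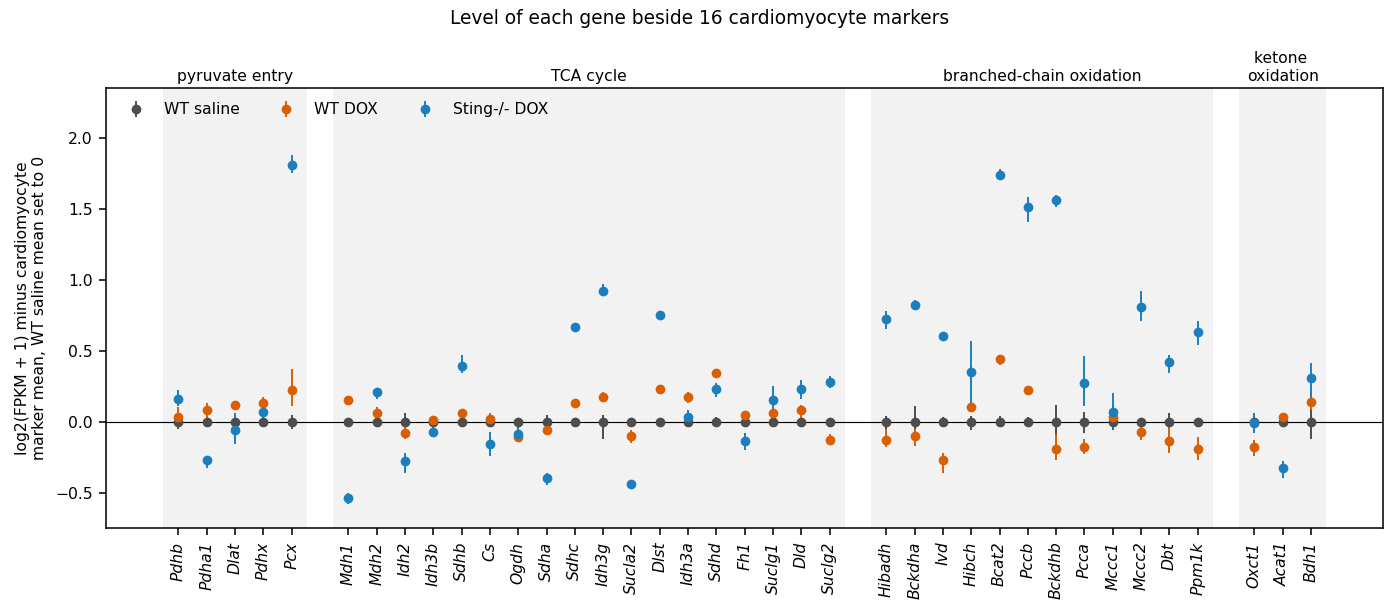
For each oxidation gene, log2(FPKM + 1) minus the mean of the 16 cardiomyocyte markers in the same library, with points at the mean of 3 libraries, bars from the lowest to the highest library, and the WT saline mean set to 0. WT DOX points lie on both sides of 0. In Sting-/- DOX libraries the branched-chain genes stand above their WT DOX points, Mccc1 only just and with overlapping bars. Genes of the other pathways go both ways, with Pcx, Idh3g, Sdhc and Dlst furthest above and Mdh1, Acat1, Pdha1 and Sdha furthest below.

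Ratios between genes were taken within each library as differences of log2(FPKM + 1), so for genes with low levels they depend on the pseudocount. Of 9 ratios, each compared between groups in 3 ways, 27 exact two-sided permutation tests were made. With 3 libraries against 3 the smallest p is 0.1, which becomes 0.117 after Benjamini-Hochberg adjustment, so that no ratio can pass 0.05 and the values are descriptive. Sucla2 to Suclg2 averaged 2.18 in saline hearts on the log2 scale, was 0.02 higher in WT doxorubicin hearts (exact permutation p = 0.4), and averaged 1.46 in Sting-/- hearts, without overlap between the last and either of the others. Mdh1 to Mdh2 was at 0.21, 0.29 and -0.55. Idh3a to Idh3g stood at -0.50 in saline and WT doxorubicin hearts and at -1.40 in Sting-/- hearts. Sdha to Sdhb went from -0.61 and -0.72 to -1.40. Within each of these 4 pairs, then, the first gene was lower relative to its partner in Sting-/- hearts. Idh2 to Idh3a was 1.57 in saline hearts, 1.33 after doxorubicin and 1.26 in Sting-/- hearts. Oxct1 to Bdh1 went from 4.13 in saline to 3.81 in WT doxorubicin hearts and little further in Sting-/- hearts, and with a pseudocount of 0.1 its genotype difference changed sign, from -0.01 to 0.22.

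Other genes of the same pathways, from lists of regulators, carriers and partner enzymes, were mostly lower as well. Of 72 tested, 46 were lower and 11 higher with doxorubicin in WT hearts, 55 lower and 11 higher in Sting-/- against WT hearts, and 57 lower and 12 higher in Sting-/- hearts against saline. Of all genes tested, 21.5%, 29.7% and 25.9% were called lower in these comparisons, and 45.3%, 54.1% and 63.0% higher. The medians of the 72 were -0.26, -0.94 and -1.15, smaller drops than those of the members. Of the 24 TCA cycle partner enzymes, assembly factors and shuttle genes tested, 16 were lower and 2 higher with doxorubicin, and 19 lower and 3 higher between genotypes. Ogdhl, a 2-oxoglutarate dehydrogenase relative, had the deepest doxorubicin difference of these at -1.36. Got1 and Got2, the transaminases of the malate-aspartate shuttle, had genotype differences of -3.14 and -2.76, and Slc25a13, an aspartate-glutamate carrier of that shuttle, of -2.75. Slc25a1, the citrate carrier that exports citrate for lipid synthesis, went the other way: it was at 4.06, 4.35 and 4.01 FPKM, 8.14, 7.54 and 8.76 FPKM and 25.6, 22.7 and 24.1 FPKM, higher by 0.83 (SE 0.066, limma adjusted p = 3.9e-07) with doxorubicin and by 1.46 between genotypes.

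Pyruvate regulators split by isoform. Of 11 tested, 8 were lower and 2 higher with doxorubicin, and 10 lower and 1 higher between genotypes. Over all genes tested these shares were 21.5% lower and 45.3% higher with doxorubicin, and 29.7% and 54.1% between genotypes. Pdk4, a pyruvate dehydrogenase kinase induced by fasting and fatty acids, was at 122, 136 and 130.0 FPKM after saline, 149, 121 and 132 FPKM after doxorubicin and 6.76, 6.09 and 7.43 FPKM in Sting-/- hearts. The saline and WT doxorubicin libraries overlapped, with a log2 fold change of 0.05 (SE 0.079, limma adjusted p = 0.614) whose sign turned after median-ratio scaling (-0.20), quantile normalization (-0.11) and without WT DOX replicate 1 (-0.031). Between genotypes Pdk4 had the deepest difference of all 72 related genes, -4.12 (SE 0.079, limma adjusted p = 4.38e-13). Pdk2, the most abundant of the kinases in saline hearts, had differences of -0.79 and -1.91, while Pdk1 had -0.26 and -1.98. Pdk3 was the only kinase called higher, at 1.41, 1.16 and 1.28 FPKM, 5.68, 5.35 and 5.72 FPKM and 7.07, 8.26 and 6.88 FPKM. Its doxorubicin difference was 1.53 (SE 0.078, limma adjusted p = 7.28e-09), and its genotype difference of 0.35 (SE 0.078, limma adjusted p = 0.00126) was not called after median-ratio scaling (0.051) or quantile normalization (0.063). Pdp2, a phosphatase that reactivates pyruvate dehydrogenase, had differences of -1.12 and -0.81. Ldhb, the heart-type lactate dehydrogenase, had differences of -0.79 and -2.49. Ldha, the muscle-type subunit, rose with doxorubicin, 0.65 (SE 0.030, limma adjusted p = 2.75e-09), and was lower in Sting-/- than in WT hearts, -1.05.

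Branched-chain and ketone genes also went both ways. Of 17 further branched-chain genes 11 were lower and 3 higher with doxorubicin, and 12 lower and 2 higher between genotypes. Over all genes tested these shares were 21.5% lower and 45.3% higher with doxorubicin, and 29.7% and 54.1% between genotypes. Aldh6a1 and Mmut, late enzymes of valine and propionate breakdown, had doxorubicin differences of -1.01 and -0.74. Echs1, a hydratase shared with fatty acid oxidation, had the deepest genotype difference of the list, -2.37. Bcat1, the cytosolic transaminase, was at 0.08, 0.11 and 0.16 FPKM, 1.62, 1.58 and 1.58 FPKM and 2.21, 1.99 and 2.08 FPKM. It rose with doxorubicin, 1.22 (SE 0.082, limma adjusted p = 9.09e-08), as did Slc7a5, a leucine importer, at 1.39. Its genotype difference of 0.25 (SE 0.082, limma adjusted p = 0.0127) was not called after median-ratio scaling (0.031) or with a pseudocount of 0.1 (0.37), and its sign turned after quantile normalization (-0.084). Of 6 ketone body genes tested, 3 were higher and 2 lower with doxorubicin, beside 45.3% and 21.5% of all genes. Between genotypes 4 were higher and 1 lower, beside 54.1% and 29.7%. Such counts of 6 genes lie near the shares of all genes. Slc16a3, a lactate exporter, rose from 0.98, 0.87 and 0.87 FPKM to 23.5, 23.8 and 23.7 FPKM and lay at 23.8, 19.5 and 22.6 FPKM in Sting-/- hearts, with a doxorubicin difference of 3.69 (SE 0.069, limma adjusted p = 2.33e-12). Slc16a1, the carrier that admits ketone bodies and lactate, was instead lower, at -0.26 and -2.75. Bdh2, a cytosolic relative of Bdh1, was at 0.34, 0.33 and 0.42 FPKM, 0.56, 1.29 and 0.51 FPKM and 2.92, 2.65 and 3.17 FPKM, higher between genotypes by 1.16 (SE 0.143, limma adjusted p = 9.67e-06). Its doxorubicin call (0.36, limma adjusted p = 0.0409) was lost in 10 alternatives, among them both scalings (0.29 and 0.014) and the fits without any 1 saline library (0.35 to 0.39), without Sting-/- DOX replicate 1 (0.36) or without WT DOX replicate 2, the highest of its group (0.17). Aacs, which activates acetoacetate in the cytosol, was called higher between genotypes at 0.38 (SE 0.093, limma adjusted p = 0.00244) but not after median-ratio scaling (0.10) or quantile normalization (0.082).

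**Figure D5:**
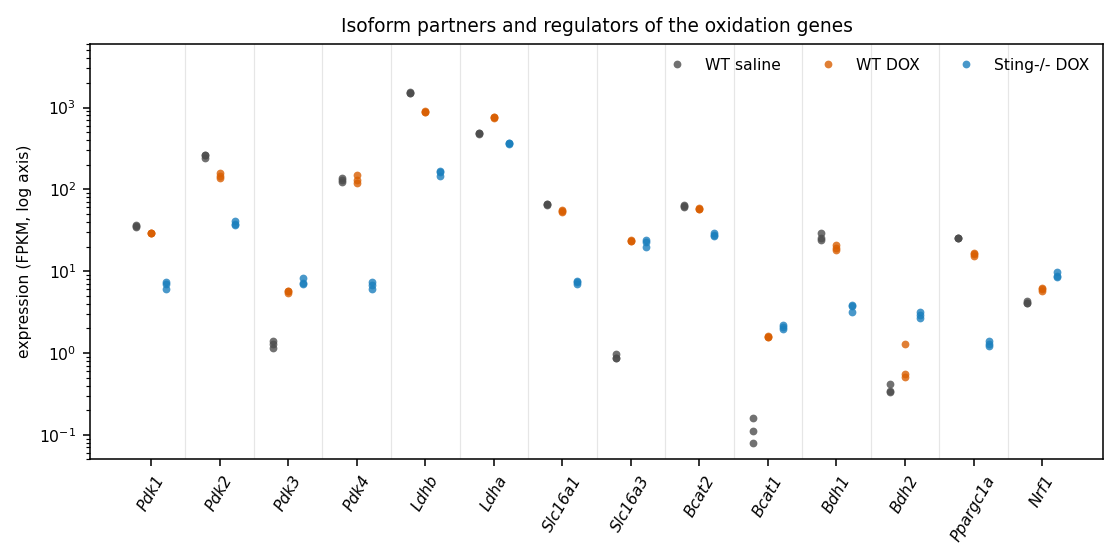
Expression (FPKM, log axis) of isoform partners and regulators of the oxidation genes in every library, with 1 point per library coloured by group. Pdk4 and Ppargc1a fall to single digits in Sting-/- DOX libraries, whereas Pdk3, Slc16a3, Bcat1 and Nrf1 are higher in both DOX groups than in saline.

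Among 14 genes listed as regulators, Sirt3, Clpx and Lonp1 included, 9 were lower, 1 was higher and 4 were not called with doxorubicin. Between genotypes 13 were lower and 1 higher, and the higher gene was Nrf1 in both comparisons. Over all genes tested 21.5% were lower and 45.3% higher with doxorubicin, and 29.7% and 54.1% between genotypes. Ppargc1a, which encodes the coactivator PGC-1α, was at 25.3, 25.7 and 25.5 FPKM after saline, 16, 16.8 and 15.4 FPKM after doxorubicin and 1.28, 1.23 and 1.41 FPKM in Sting-/- hearts. The groups were wide apart, with a doxorubicin difference of -0.63 (SE 0.055, limma adjusted p = 8.01e-07) and a genotype difference of -2.89 (SE 0.055, limma adjusted p = 3.96e-13). Klf15, a factor that drives branched-chain catabolism, and Ppara, a lipid-sensing receptor, had doxorubicin differences of -0.91 and -0.73 and genotype differences of -2.12 and -1.96. Esrrb, an estrogen-related receptor, was not called with doxorubicin, 0.05 (SE 0.097, limma adjusted p = 0.684), a value whose sign turned after median-ratio scaling (-0.18) and quantile normalization (-0.17), and differed by -2.40 between genotypes. Nrf1, whose motif marks the promoters shown above, was at 4.11, 4.12 and 4.34 FPKM, 5.76, 6.04 and 6.23 FPKM and 8.61, 9.86 and 8.59 FPKM. It was higher in each doxorubicin group, by 0.43 (SE 0.066, limma adjusted p = 9.96e-05) in WT hearts and by a further 0.51 (SE 0.066, limma adjusted p = 1.27e-05) between genotypes.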

How the data were processed

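Per the labels, total RNA of mouse heart was sequenced in 9 libraries, 3 per group. The authors deposited 1 table of FPKM values per library, keyed by Entrez gene ID, and the submitters' processing notes name HISAT2 2.0.4, Bowtie2 2.2.5, RSEM 1.2.12 and the build GRCm39, with no role or order. FPKM holds no counts, so no count model was used. Symbols were matched to 16825 of 16873 IDs. The 12485 genes averaging 1 FPKM or more were fitted as log2(FPKM + 1) with limma 3.58.1 in R 4.3.3, all 9 libraries in 1 fit with a trended variance prior, two-sided, with Benjamini-Hochberg adjustment over all genes and a threshold of 0.05. On simulated data with 12334 to 12348 genes, log2 changes of 0.5 were recovered in 79% (WT DOX against saline), 81% (Sting-/- against WT DOX) and 86% (Sting-/- DOX against saline) of cases. The changes were planted in a small subset of genes, and each gene otherwise had the same mean and spread in every group. The 3 percentages are thus separate random draws of 1 setting and do not rank the comparisons. Far more genes were called in the deposited data, where recovery was not measured.

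The genes and lists were chosen with earlier results of these data known. Values in every library are given for the members with the largest and smallest fold change of each pathway and for regulatory steps. Of the related lists, Pdk4, Bckdk, Bcat1 and Ppargc1a and up to 3 genes with the largest fold change of each list and comparison are named, and some are not reported here. Pdk1, Ldha and Nrf1, and the library values of Sucla2, Sdha and Mdh2, were added after their values were seen. Depth was estimated from the step between low FPKM values of genes with 1 transcript, and covers counting error only. Alternatives were another pseudocount (0.1), other filters, median-ratio and quantile scaling, TPM scaling, only the groups compared, no variance trend, a replicate block and leaving out each library. Stretches of at least 200 bases with 95% identity to another listed gene were found in Bckdha, Pdha1 and Ppm1k. Suclg2 and Oxct1 had such stretches with genes that have no values here, Gm15163 (1302 bases) and BC037032 (468 bases). Strand was not stated, so these 5 and the exon overlap of Idh3b with Nop56 are uncertain. The ratios of Sucla2 to Suclg2, Oxct1 to Bdh1 and Bckdk to Ppm1k share this limit.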

Additional observations from a re-analysis of the deposited data

How the results depend on the processing

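The counts of members called lower or higher stayed within 1.5 times their value in all 108 pairings of a count with an alternative. This rule had little room to fail, since the counts called higher were 0 throughout and those called lower 37 or 38 of 38. The replicate numbers did not pair the libraries (correlations of -0.032 to 0.104 between same-numbered libraries), and with a replicate block 37, 38 and 38 members were lower in the 3 comparisons. The block lost the doxorubicin call of Bdh2 (0.36). With doxorubicin in WT hearts, signs turned after median-ratio scaling for Pdk4 (-0.20), Esrrb (-0.18) and Egfl7 (-0.10), and after quantile normalization for Pdk4 (-0.11), Esrrb (-0.17), Egfl7 (-0.032) and Actc1 (0.13). Between genotypes they turned for Cd36 after median-ratio scaling (-0.18) and for Bcat1 after quantile normalization (-0.084). In Sting-/- hearts against saline the sign turned for Slc7a5 after quantile normalization (-0.18). Leaving out 1 library, Pdk4 ranged from -0.031 to 0.12 and Acta2 from -0.15 to 0.083 with doxorubicin, the turns coming without WT DOX replicate 1 for Pdk4 and without saline replicate 2 or WT DOX replicate 2 (0.070) for Acta2. With a pseudocount of 0.1 the ratio of Sucla2 to Suclg2 differed by -0.70 between genotypes and by -0.67 from saline, Oxct1 to Bdh1 by 0.22 and -0.08, Bckdk to Ppm1k by 0.77 and 1.31, and Bcat1 to Bcat2 by 1.44 and 4.52, with 3.09 for doxorubicin in WT hearts. Beside the median of the cardiomyocyte markers the members stood at -0.07 with doxorubicin, 0.37 between genotypes and 0.33 from saline, and at 0.19 from saline with a pseudocount of 0.1. Each cause was not tested. Depth limits most the genes near 1 FPKM, such as Bcat1 and Bdh2. Some members were also low in the shallower Sting-/- libraries, such as Ppm1k at 3.17, 3.64 and 3.09 FPKM. The members' median coefficient of variation was 4.01% in those libraries, 1.94% in saline and 2.29% in WT doxorubicin libraries. The part of depth in this was not tested.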
